A study of Anoectochilus roxburghii with 9 samples.

Results

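The comparison described here set leaves of Anoectochilus roxburghii, a medicinal orchid, that had been given an ArPHR4 overexpression construct against leaves given an empty vector (EV). It held 6 of the 9 RNA-seq libraries of the series, 3 ArPHR4 and 3 EV, chosen by their titles. The other 3 libraries came from leaves with an ArPHR2 construct. All plants were wild type by their labels, all leaves had undergone transient overexpression, and all were taken at day 3. A list of sample names deposited with the table gives the constructs as ArPHR4-YFP, ArPHR2-YFP and PHB-YFP. Every gene of the table that passed an expression filter was part of the comparison, 27275 of 85512 assembled genes.

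PHR proteins are MYB-type transcription factors. In Arabidopsis and rice they bind a short element in the promoters of genes that respond to phosphate shortage, and SPX proteins hold them back when phosphate is ample. In rice they also act in the response of roots to mycorrhizal fungi. Transient expression places a construct in cells of an existing leaf, so a bulk library mixes cells that took it up with cells that did not. A gene with fewer counts can mean fewer cells of a type or less RNA per cell, which bulk libraries cannot tell apart.

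Total counts were 16032716 to 16757000 in the ArPHR4 libraries and 16488391 to 16547194 in the EV libraries. The table names genes only by assembly ID and pairs no ID with a symbol, a function or a position, so roles of single genes are not given, the leaf identity of the samples was not checked against marker genes, and the ArPHR4 transcript was not looked up. Whether replicate libraries stem from different plants is not stated in the labels. The p-values therefore speak only to how far these libraries scatter, part of which may be technical scatter.

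The whole transcript pool shifted between the groups. For each pair of libraries, the share of counts that would have to move to other genes to turn one library into the other was computed over all genes of the table. An ArPHR4 library and an EV library differed in this way by 19.2% to 19.9% of their counts (9 pairs, median 19.4%). Pairs of ArPHR4 libraries differed by 2.94% to 3.54% and pairs of EV libraries by 2.60% to 3.27%. ArPHR4 and ArPHR2 libraries lay between, at 11.2% to 11.8%. ArPHR2 and EV libraries differed by 15.97% to 16.27%, so a large distance from EV was not particular to ArPHR4 leaves. Pairs of ArPHR2 libraries differed by 3.155% to 3.904%. Every pair across groups was thus further apart than any pair within a group, and the 9 pairs of ArPHR4 and EV libraries lay within 1 percentage point of each other.

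**Figure D1:**
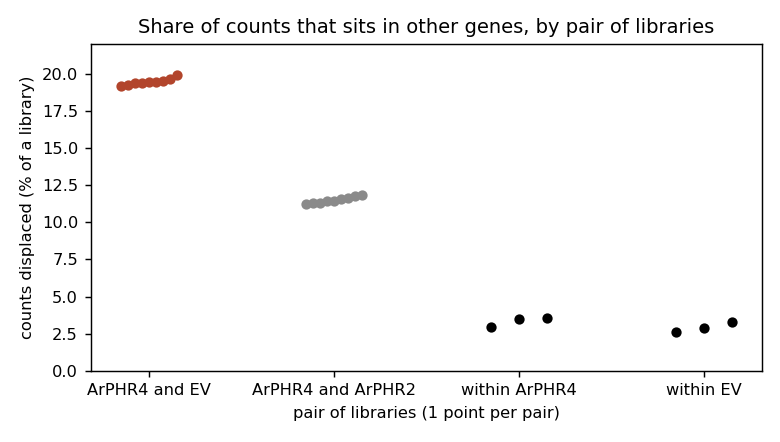
Share of a library's counts (vertical axis, percent) that sits in other genes in the second library of a pair, with 1 point per pair of libraries. The 9 pairs of an ArPHR4 and an EV library lie between 19.2% and 19.9%, above the pairs of ArPHR4 and ArPHR2 libraries (11.2% to 11.8%) and above the pairs within ArPHR4 and within EV, which reach 3.54% at most.

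The most abundant genes carried much of this difference. On CPM (counts relative to the scaled size of the library), ArPHR4 and EV libraries correlated across genes with r of 0.724 to 0.744, where libraries of the same group reached 0.996 or more. On log2 CPM, where low and high genes weigh alike, the range across groups was 0.927 to 0.929. Within groups it was 0.979 to 0.980 for ArPHR4 and 0.984 to 0.985 for EV. Genes within a library are not independent replicates, and these values are descriptions. The 100 genes with the highest mean CPM in ArPHR4 leaves shared 67 members with the 100 highest of EV leaves. Between single ArPHR4 and EV libraries the shared part was 64% to 68%, against 96% to 99% between libraries of the same group. Of the 10 highest genes, 6 were shared, and of the 1000 highest, 760.

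The most abundant genes of a library held a smaller share of the counts in ArPHR4 leaves than in EV leaves. In the ArPHR4 libraries numbered 1 to 3 it took 1425, 1427 and 1443 genes to reach 50% of the counts, and in the EV libraries it took 1180, 1187 and 1202 genes. The groups did not overlap, and the ArPHR2 libraries lay between them, at 1304, 1318 and 1257 genes. The 1000 most abundant genes of a library held 43.7% ± 0.123 of the counts in ArPHR4 and 47.0% ± 0.171 in EV (SD, n = 3), and the 10 most abundant held 6.22% ± 0.0918 and 6.49% ± 0.0621. Genes at 1 CPM or more numbered 21420 to 21566 in ArPHR4 libraries and 20736 to 21152 in EV libraries. The ArPHR2 libraries had 21761, 22005 and 21370 such genes. Each of these measures had a two-sided exact permutation p of 0.1, the smallest that 3 against 3 libraries allow, and 0.1 after Benjamini-Hochberg adjustment over the 5 measures tested. Set on FPKM in place of counts, the last measure differed by -31.7 genes in ArPHR4 against EV, so it had no settled direction. Genes with at least 1 count, a measure outside these 5, were fewer in ArPHR4 libraries (46343 to 46756) than in EV libraries (48035 to 48996).

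The changes in single genes reached across the tested transcriptome. In the edgeR quasi-likelihood test, 7120 genes were called higher and 7063 lower in ArPHR4 than in EV at an adjusted p under 0.05, which is 26.1% and 25.9% of the genes tested and 52% together. Genes called higher held 39.0% to 39.3% of the counts of each ArPHR4 library and 21.7% to 21.9% of each EV library. Genes called lower held 40.1% ± 0.262 of the counts in ArPHR4 and 58.7% ± 0.224 in EV (SD, n = 3). These shares describe genes that the same contrast had chosen. The tested genes with no call took up 20.3% and 19.0% of the counts in ArPHR4 and EV.

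Over all tested genes, called or not, 40.0% to 40.2% stood above all 3 EV libraries in any one ArPHR4 library and 39.4% to 39.5% below all 3. The called genes were chosen by the same contrast, and their counts are a description. Of the 7120 genes called higher, between 6989 and 7017 stood above all 3 EV libraries in any one ArPHR4 library. Of the 7063 called lower, between 6927 and 6952 stood below all 3. The median distance from the EV mean was 0.71, 0.71 and 0.72 on the log2 scale for the genes called higher. Groups that did not overlap were found for 58.1% of all tested genes, with ArPHR4 above EV for 29.3% and below it for 28.9%, and for 95.3% of the genes called higher and 95.6% of those called lower. The ArPHR4 library numbered 3 had the fewest counts of its group, and without it 6795 genes were called higher and 6640 lower.

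Most called changes were small. Genes called higher had a median log2 fold change of 0.82 (1.77-fold), and genes called lower one of -0.69 (1.62-fold lower). Among all calls, 38.9% were under 1.5-fold and 61.3% under 2-fold in fitted size. The test against a minimum fold (edgeR glmTreat, adjusted p under 0.05) asks whether a change exceeds that fold, where the plain test accepts any change. Past 1.2-fold it called 5230 genes higher and 4893 lower, 37.1% of the tested genes. Past 1.5-fold it called 2846 and 2442 (19.4%), and past 2-fold 1402 and 1066 (9.05%).

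The balance of directions depended on the size of the change. The share of higher genes was 51.7% past 1.2-fold and 56.8% past 2-fold. With upper-quartile scaling 2548 genes were higher and 2724 lower past 1.5-fold, so neither direction led at that size, while past 2-fold higher genes led with each of the 4 scalings, by 1304 to 1180 with upper-quartile scaling and 1583 to 907 with library totals. Past 4-fold, 412 genes were higher and 189 lower (2.2% of the tested genes), so that 68.6% of them were higher. Fitted fold changes depend on a small added count where a group has none, so the large changes were also counted with such a group set to 3 counts over its libraries. At 16-fold or more, 215 called genes were higher and 121 lower by fitted fold, and 192 and 67 with such groups set to 3 counts. At 32-fold or more these were 109 and 52 by fitted fold, and 74 and 18 with 3 counts. Higher genes were in excess on both scales, and the size of the excess differed between them.

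**Figure D2:**
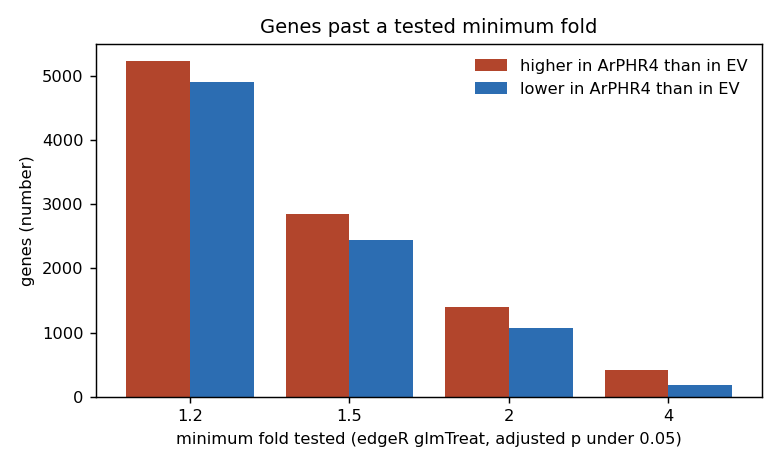
Number of genes (vertical axis) that passed each tested minimum fold (horizontal axis) in ArPHR4 against EV, higher and lower. Higher and lower genes are nearly balanced past 1.2-fold (5230 and 4893), and higher genes lead past 4-fold (412 and 189).

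A gene without a call was not shown to be stable, and how closely it was bounded depended on abundance. The genes were divided by mean CPM over the 9 libraries into 10 bins of equal size, from bin 1 (median 0.522 CPM) to bin 10 (median 135 CPM). Of the 13092 genes not called, 4437 had a 95% interval of the fold change that lay within 1.5-fold in either direction, 33.9% in all. This held for none of the 2058 such genes in bin 1, with the same count at 2-fold, and for 448 of 448 in bin 10. In bin 6, at a median of 8.72 CPM, it held for 75.7%. The median distance from the estimate to the end of the interval was 1.31 (log2) for genes of bin 1 and 0.098 for genes of bin 10. The 13092 genes include 126 with no count in any ArPHR4 or EV library, which entered the test through the ArPHR2 libraries and have no interval.

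The direction of the response turned with abundance. In bin 10, the most abundant genes, 1486 genes were lower and 794 higher in ArPHR4, and 83.6% of the bin was called. In bin 7, at a median of 18.2 CPM, the split was the other way, with 1018 genes higher and 587 lower. Bin 6 had 980 higher and 606 lower, and bin 5 had 875 and 657. Bins 1 to 4 were close to even, with 47.2% to 51.1% of the calls higher. The median of all genes in a bin, called or not, followed the same course, at 0.13, 0.14 and 0.12 on the log2 scale in bins 5, 6 and 7 and at -0.16 in bin 10.

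The scaling of the libraries moves all genes together, and with it the split in every bin. The median of all genes was 0.01 on the log2 scale with TMM scaling, -0.05 with upper-quartile scaling and 0.11 with library totals. Bins 6 and 7 had more higher than lower genes, and bin 10 more lower than higher, in all 20 settings examined. In bin 9, where 834 genes were higher and 1158 lower, the order turned with library totals, to 1076 higher and 855 lower, and with limma on log2(FPKM + 1), to 1001 and 700. In bin 8 the 922 higher and 830 lower genes became 816 and 979 with upper-quartile scaling. In bin 10 the split came close to even in some settings, with 970 higher and 1072 lower genes by limma on log2(FPKM + 1) (median log2 fold change -0.03) and 981 and 1241 with library totals (median -0.06). With genes sorted by mean FPKM in place of CPM, bin 7 had 910 higher and 718 lower genes (median 0.04) and bin 10 had 867 and 1274 (median -0.10).

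Sorting genes by the libraries under test can itself tilt the bins, because a gene that is high by chance in one group lands in a higher bin. The ArPHR2 libraries are outside the contrast, and bins made from them alone gave 854 higher and 1404 lower genes in bin 10 and 996 and 607 in bin 7. These bins can still be tilted, because many genes moved the same way in ArPHR2 leaves. Against the same EV libraries, the median log2 fold change in ArPHR2 was 0.53 for the genes called higher in ArPHR4. It was -0.43 for those called lower. In the low bins the libraries used for sorting set the split: by EV abundance, bin 1 had 955 higher and 63 lower genes, and by ArPHR4 abundance it had 34 higher and 939 lower. Bin 10 had more lower genes in each case, 544 higher and 1747 lower by EV abundance and 1007 and 1256 by ArPHR4 abundance.

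**Figure D3:**
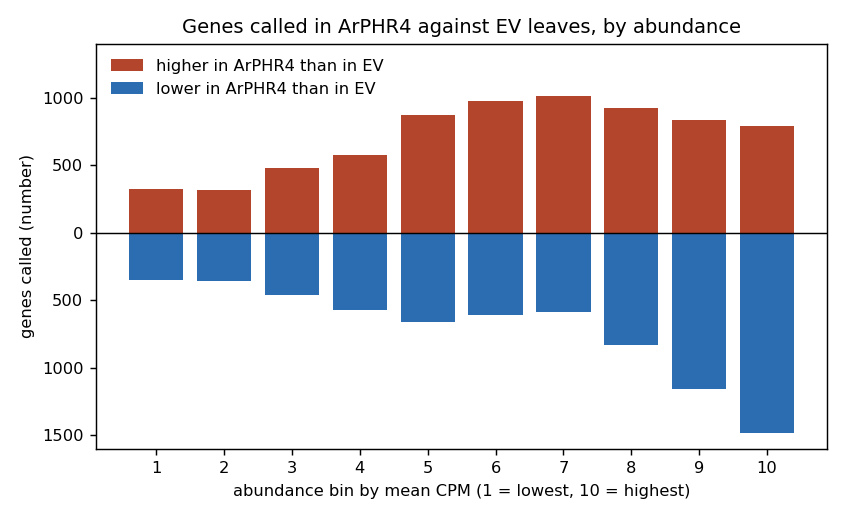
Genes called higher (above the line) and lower (below the line) in ArPHR4 than in EV in each of 10 abundance bins of equal size. Bin 7 holds 1018 higher and 587 lower genes, and bin 10 holds 794 higher and 1486 lower.

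As shares of each library's counts, which sum to a fixed whole and so equal a scaling by library totals, bin 10 was lower in ArPHR4 and the other 9 bins were higher. Genes of bin 10 took 62.8% ± 0.153 of the counts in ArPHR4 and 66.0% ± 0.156 in EV (SD, n = 3). Genes of bin 7 took 5.40% ± 0.016 and 4.61% ± 0.014, and genes of bin 8 took 9.45% ± 0.0276 and 8.56% ± 0.0214. Genes of bin 9 took 16.82% ± 0.0015 in ArPHR4 and 15.996% ± 0.0093 in EV, although more of its genes were called lower than higher with TMM scaling. In bins 7 to 10 the difference between the group means exceeded the SD of either group.

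Changes were smaller in more abundant genes up to bin 9. On the log2 scale, called genes changed by a median of 2.37 in bin 1, 1.00 in bin 5, 0.38 in bin 9 and 0.42 in bin 10. Precision moved with it: the median standard error was 0.66 in bin 1 and 0.047 in bin 10, and the smallest change called was 1.27 in bin 1 and 0.083 in bin 10. The spread of all fold changes in a bin, taken from the interquartile range, was 1.32 in bin 1, 0.91 in bin 5 and 0.46 in bin 10. With the squared median standard error taken off, it was 1.14, 0.88 and 0.46, and it was lowest in bin 9, at 0.41. Bin 10 was thus more widely spread than bin 9, at a smaller standard error. The filter worked by group, so a sparse gene could pass it through a single group where it was high. The sizes and the spread of changes in the low bins can be partly set by this. In bin 1, 130 genes had no count in ArPHR4 and 110 had none in EV, and genes with neither are in both numbers. The share of genes past 2-fold by glmTreat was highest in bin 5, at 13.6%, and was 9.64% in bin 10 and 6.01% in bin 9.

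**Figure D4:**
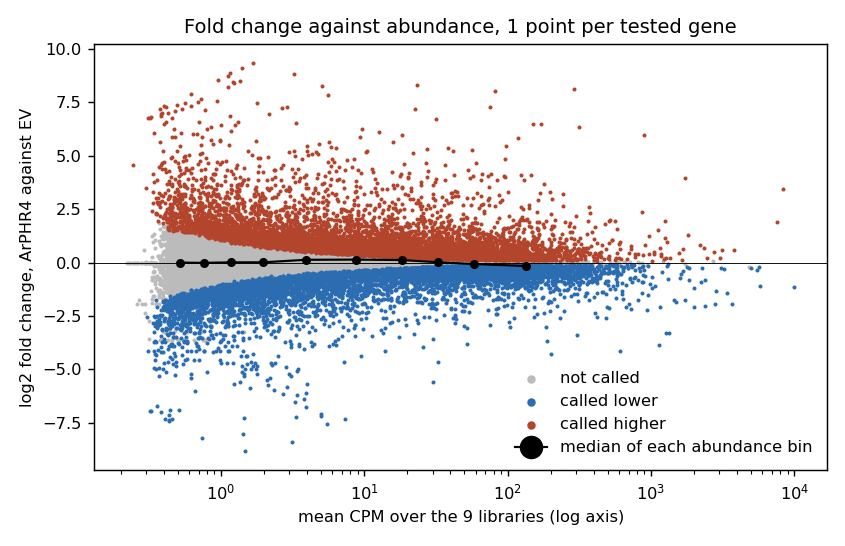
Log2 fold change of each tested gene in ArPHR4 against EV (vertical axis) by its mean CPM over the 9 libraries (horizontal log axis), with the median of each abundance bin in black. The band of genes with no call is wide on the left, where standard errors are large, and the medians lie above 0 in bins 5 to 7 and at -0.16 in bin 10.

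A few abundant genes accounted for much of the counts that moved. Over the genes called higher, ArPHR4 exceeded EV by 154337 CPM in all, and 196 of the 7120 genes made up 50% of that gain. Over the genes called lower, ArPHR4 fell short of EV by 222773 CPM, and 170 of 7063 genes made up 50% of that loss. The 10 largest gains summed to 42936, 43267 and 44032 CPM in the ArPHR4 libraries numbered 1 to 3, against 12875, 13379 and 13314 CPM in the EV libraries. The 10 largest losses summed to 20686, 20659 and 19569 CPM in ArPHR4, against 60206, 59754 and 58012 CPM in EV. The balance of gain and loss moved with the scaling. The gain was 151701 CPM and the loss 226572 CPM with edgeR's RLE scaling, and 138757 and 248389 CPM with upper-quartile scaling. Library totals, summed over the tested genes, gave 182981 and 183315 CPM, and they make gain and loss equal over all tested genes by construction.

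The largest gain in CPM was that of TRINITY_DN243_c0_g1, a gene of no known name in the files. It stood at 10198, 10424 and 10699 CPM in the ArPHR4 libraries, 13358, 13803 and 13166 CPM in the ArPHR2 libraries and 945, 958 and 960 CPM in the EV libraries. Every ArPHR4 library was above every EV library and below every ArPHR2 library. All named IDs were chosen among called genes whose ArPHR4 and EV libraries did not overlap. Such a lack of overlap held for 58.1% of all tested genes. The log2 fold change against EV was 3.45 ± 0.035 (SE; edgeR adjusted p = 1.32e-36) and against ArPHR2 -0.36 ± 0.032 (edgeR adjusted p = 3.87e-11). By its rank in CPM it was at place 2 in ArPHR4 leaves and place 80 in EV leaves.

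TRINITY_DN5598_c0_g1 had the next largest gain and the highest CPM of the ArPHR4 leaves. It had 12261, 12503 and 12064 CPM in ArPHR4, 6830, 6889 and 7269 CPM in ArPHR2 and 3505, 3301 and 3182 CPM in EV. The groups were in steps, with no overlap between any of them. The log2 fold change against EV was 1.88 ± 0.036 (SE; edgeR adjusted p = 5.67e-29). CPM are not corrected for length, and the length that count and FPKM imply for this gene was 428 bases, against 3255 bases for TRINITY_DN243_c0_g1. Per length, TRINITY_DN5598_c0_g1 was at 29410 ± 512 FPKM in ArPHR4 and 7646 ± 298 FPKM in EV, and TRINITY_DN243_c0_g1 at 3315 ± 69.7 FPKM in ArPHR4 and 272 ± 5.71 FPKM in EV (SD, n = 3).

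The largest losses in CPM came from genes near the top of the EV leaves. A loss in CPM cannot exceed the EV level, so this is partly built in. TRINITY_DN3284_c0_g1, with the highest CPM of EV leaves, had 7427, 7455 and 6952 CPM in ArPHR4, 6598, 6548 and 6780 CPM in ArPHR2 and 16277, 16178 and 15535 CPM in EV. It was lower than EV in every ArPHR4 library, by 1.14 ± 0.034 on the log2 scale (SE; log2 fold change -1.14, edgeR adjusted p = 6.64e-24). TRINITY_DN232_c0_g1 had 1848, 1910 and 1779 CPM in ArPHR4, 2081, 2002 and 2259 CPM in ArPHR2 and 7199, 7213 and 6710 CPM in EV. Its log2 fold change against EV was -1.93 ± 0.041 (SE; edgeR adjusted p = 6.13e-28). All 4 IDs are the only gene of their assembly component in the table.

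**Figure D5:**
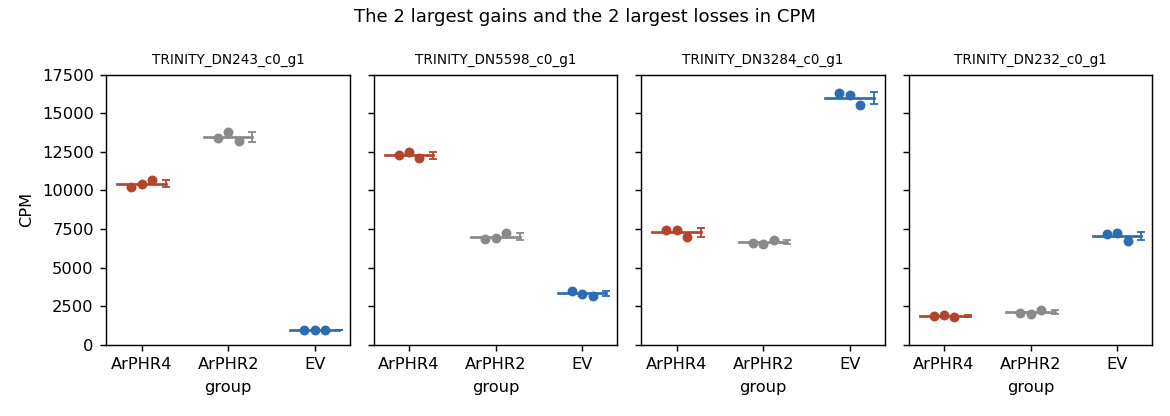
CPM (linear axis from 0) of the 2 genes with the largest gain and the 2 with the largest loss in ArPHR4 against EV, with 1 point per library, the group mean as a line and its SD as an error bar. The genes were chosen among called genes whose ArPHR4 and EV libraries do not overlap, and the SD is small beside the distance between these groups.

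The top of the ArPHR4 leaves was a mixture of gains, losses and genes that hardly moved. Of the 10 genes with the highest CPM in ArPHR4 leaves, 4 were called higher and 5 lower than in EV. The gene at place 4 differed little, at 4875 ± 269 CPM in ArPHR4 and 5614 ± 199 CPM in EV (SD, n = 3; log2 fold change -0.20 ± 0.042, edgeR adjusted p = 0.000128). The gene at place 6 was not called, at 4469, 3772 and 5342 CPM in ArPHR4 and 4243, 5677 and 5684 CPM in EV, and its libraries varied widely within both groups (edgeR adjusted p = 0.0806). Of the 10 genes with the highest CPM in EV leaves, 9 were called lower and none higher, and 4 of these stood at places 23 to 55 in ArPHR4 leaves. Genes picked for a high EV level tend to be lower elsewhere, so the last count has the choice of genes built in.

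Some genes with a high mean over the 9 libraries had large fold changes, and these genes were picked after their values had been seen. That mean includes the groups compared, so a gene high in only 1 group passes the limit through that group, and the contrasts below are partly set by this choice. Of the 2150 tested genes that averaged 100 CPM or more over the 9 libraries, 36 rose and 32 fell by 4-fold or more, and 8 rose and 2 fell by 16-fold or more. The 8 genes were at 1.84 to 21.0 CPM on average in EV leaves and at 315 to 1306 CPM in ArPHR4 leaves. Each of them had at least 24 counts in every EV library, so no fold change here rests on a group without counts.

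For 3 of these 8 genes the ArPHR2 and ArPHR4 leaves differed by less than 1.5-fold, and 2 of the 3 were called different. The one with the largest fold had 501, 496 and 529 CPM in ArPHR4, 368, 346 and 369 CPM in ArPHR2 and 2.36, 1.64 and 1.5 CPM in EV, a log2 fold change against EV of 8.11 ± 0.079 (SE; edgeR adjusted p = 5.36e-37). It was higher in ArPHR4 than in ArPHR2 by 0.49 ± 0.042 on the log2 scale (edgeR adjusted p = 2.47e-11). Another had 1293, 1310 and 1316 CPM in ArPHR4, 1365, 1375 and 1372 CPM in ArPHR2 and 21.2, 19.3 and 22.6 CPM in EV. Its ArPHR4 and ArPHR2 levels were not called different (log2 difference -0.07 ± 0.035, SE; edgeR adjusted p = 0.14), and ArPHR4 was 62.1-fold above EV. The third was at 417 ± 9.21 CPM in ArPHR4, 524 ± 8.77 CPM in ArPHR2 and 5.02 ± 0.1 CPM in EV (SD, n = 3), and its log2 difference between ArPHR4 and ArPHR2 was -0.33 ± 0.037 (SE; edgeR adjusted p = 8.63e-09).

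For the other 5 the ArPHR4 level was several times that of ArPHR2. The clearest had 411, 423 and 427 CPM in ArPHR4, 19.7, 23.2 and 27.8 CPM in ArPHR2 and 5.24, 4.55 and 4.07 CPM in EV. It was higher in ArPHR4 than in ArPHR2 by 4.16 ± 0.068 on the log2 scale (SE; edgeR adjusted p = 2.61e-30), and higher than in EV by 6.51 ± 0.086 (edgeR adjusted p = 2.15e-33). Another was at 476 ± 9.8 CPM in ArPHR4, 35.6 ± 1.09 CPM in ArPHR2 and 5.31 ± 0.174 CPM in EV, and a further one at 319 ± 2.17, 28.2 ± 1.09 and 5.57 ± 0.868 CPM (SD, n = 3). The remaining pair rose 17.2-fold and 17.1-fold against EV, to 349 ± 8.52 and 315 ± 11.9 CPM in ArPHR4, with 70.6 ± 4.2 and 41.3 ± 3.9 CPM in ArPHR2. In all 5 the order of the group means was ArPHR4, ArPHR2, EV from high to low.

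Among abundant genes that fell, 9 fell by 8-fold or more. The largest loss in fold was of a gene at 26.5, 24.8 and 23.1 CPM in ArPHR4, 88.1, 85.8 and 101 CPM in ArPHR2 and 497, 488 and 482 CPM in EV (log2 fold change against EV -4.30 ± 0.058, SE; edgeR adjusted p = 4.18e-33). The largest losses in CPM among the 9 were of genes that stood at places 19 and 20 in EV leaves. They had 299 ± 14 and 196 ± 5.9 CPM in ArPHR4, 801 ± 6.12 and 361 ± 5.72 CPM in ArPHR2 and 2899 ± 31.8 and 2863 ± 23.3 CPM in EV (SD, n = 3). Of the 9 genes, 8 had an ArPHR2 level between those of ArPHR4 and EV.

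The exception went opposite ways in the 2 overexpression groups. It had 116, 104 and 106 CPM in ArPHR4, 2660, 2637 and 2677 CPM in ArPHR2 and 1082, 1065 and 1055 CPM in EV. The log2 fold change of ArPHR4 against EV was -3.30 ± 0.041 (SE; edgeR adjusted p = 3.29e-34), and that of ArPHR4 against ArPHR2 was -4.61 ± 0.043 (edgeR adjusted p = 4.71e-37). Its libraries fell into 3 groups with no overlap.

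At the low end, some genes were seen in only 1 of the 2 groups. With at least 10 counts in each library of one group and no more than 3 in total in the other group, 92 of the 85512 genes were seen in ArPHR4 and 48 in EV. In the other group 32 of the 92 and 16 of the 48 had no count at all. These genes were sparse, with a median of 1.34 CPM in ArPHR4 for the 87 tested of the first set and 1.06 CPM in EV for the second. In the ArPHR2 libraries 19 of the 92 also had at least 10 counts in each library, and 7 had at most 3 counts over the group. Both counts moved with the limit, to 253 and 208 genes at 5 counts and to 38 and 8 genes at 20 counts, and ArPHR4 had the larger set at each.

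The share of genes called and their direction also moved with length. Count and FPKM imply a length for each gene, here for the tested genes with at least 10 counts and 1 FPKM in some library. In the shortest of 5 length bins (median 207 bases), ArPHR4 had 1203 genes higher and 924 lower than EV, and in the longest (median 2097 bases) it had 1553 higher and 2015 lower. Abundance moved with length, at a median of 1.25 CPM in the shortest bin and 33.9 CPM in the longest. With lengths taken from the EV libraries alone, which leaves fewer genes, the shortest bin had 907 higher and 946 lower genes, with the median log2 fold change at -0.03 in place of 0.08, so the order turned there, and the longest had 1335 and 1901. Within abundance bins 9 and 10, the shortest length bin held only 192 genes and was even (68 higher and 68 lower). Lower genes led in each of the other length bins. From shorter to longer these had 197 higher and 255 lower, 278 and 502, 441 and 662, and 644 and 1157. The part of abundance, and of the counting of short assembled transcripts, in this course was not tested.

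Some assembly components held genes that went different ways. Genes of one component carry the same ID up to the final number, and such genes can share reads. Among the tested genes, 6089 had such a partner that was also tested, in 2801 components, and 54.5% of them were called, against 51.3% of the others. Both genes were called in 1260 of the 3872 pairs. In 760 of those pairs both moved in the same direction and in 500 (39.7%) in opposite directions, and 427 components held both a higher and a lower gene. As background, 50.2% of all calls were higher and the rest lower. Reads shared between similar transcripts were not separated here, so changes of single members of such components are uncertain.

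In bins 7 and 10 the ArPHR4 leaves differed from the ArPHR2 leaves in the same direction as from EV leaves. Both comparisons use the same ArPHR4 libraries, so part of this likeness is built in. In the direct comparison, 32.5% of the tested genes were called. In bin 7, 722 genes were higher and 383 lower in ArPHR4 than in ArPHR2, and in bin 10, 675 were higher and 1145 lower. The orders in bins 7 and 10 held with each of the 4 scalings examined. Bin 10 had 541 higher and 1336 lower genes with upper-quartile scaling and 764 and 1051 with library totals. With TMM scaling, bins 5, 6 and 8 also had more higher genes in both comparisons, and bins 1, 2 and 4 more lower. The lean differed in bin 1, with 107 higher and 275 lower genes, where the comparison with EV had 323 and 347. The order turned in bin 3, with 197 higher and 260 lower, where that with EV had 479 and 458. It also turned in bin 9, with 713 and 632, where that with EV had 834 and 1158. With upper-quartile scaling, bin 9 had 563 and 805. Both overexpression groups share the EV libraries, so their values against EV stand side by side only: in bin 10, ArPHR4 had 794 genes higher and 1486 lower, and ArPHR2 had 862 and 1253, where 44.3% of all tested genes were called in ArPHR2.

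The direct comparison also separated the larger responses. Of the 1402 genes past 2-fold upward by glmTreat against EV, 927 were higher in ArPHR4 than in ArPHR2, 68 were lower and 407 were not called. Of the 1066 past 2-fold downward, 671 were lower in ArPHR4 than in ArPHR2, 33 were higher and 362 were not called. Genes chosen for a large change in ArPHR4 lean to that side in any comparison that uses the ArPHR4 libraries, so these counts describe the set and are no test of it. A missing call does not show equal levels.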

How the data were processed

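RNA-seq counts and FPKM of 9 leaf libraries were analysed, 3 per group. Per the labels' protocols, a Qiagen column kit gave the RNA and a SMARTER mRNA-Seq kit the libraries; strand setting, aligner, assembler and counter: not given in the sources used here. Counts deposited by the authors are whole numbers per assembled gene. The deposited FPKM are corrected for length and depth, per the file headers. A deposited matrix of pairwise values between libraries was not used.

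The test on counts was that of edgeR 4.0.16 under R 4.3.3 (quasi-likelihood, TMM scaling, filter by group), in 1 model of 3 group means over 9 libraries with 6 residual degrees of freedom. Benjamini-Hochberg adjustment ran over the 27275 tested genes, with calls at an adjusted p under 0.05. CPM use the library sizes after TMM scaling. The standard error is the size of the log2 fold change over the square root of the F statistic. The tested genes held 99.5% ± 0.0542 of the counts in ArPHR4 and 99.6% ± 0.018 in EV (SD, n = 3). In the table, 18759 genes had no count in any ArPHR4 or EV library, 126 of them tested, and 39604 had counts but did not pass the filter. Alternatives used limma 3.58.1 on log2(FPKM + 1) and DESeq2 1.42.0. The test scripts were tested on simulated data.

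The comparison, bins and tests were chosen with earlier results of these data known. Named IDs are the 2 called genes with the largest gain and the 2 with the largest loss in mean CPM whose ArPHR4 and EV libraries did not overlap; other genes are described by rank, without their ID. Libraries of ArPHR4 and EV share numbers, but the labels state no pairing, so the numbers were not taken as pairs. Over all tested genes, deviations of same-numbered libraries correlated with r of -0.00293, 0.0245 and 0.0365. Libraries with different numbers had r of -0.0369 to 0.0124. The scatter of sparse genes enters these values, so they cannot exclude pairing. No gene list could be applied, since the IDs carry no names.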

Additional observations from a re-analysis of the deposited data

How the results depend on the processing

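None of the alternatives run for the named genes, which do not include the implied length offset, reversed or ended a call. The counts of genes called higher or lower stayed within 1.5 times those reported, and so did the glmTreat counts in the edgeR settings run for them. With the implied length offset, 6134 of 26197 genes were higher and 5867 lower; 78.4% of the calls kept their direction and 77 turned. Leaving out 1 library at a time gave 6444 to 6795 higher and 6460 to 6640 lower genes. The share of higher calls was 50.2%, with 44.9% under upper-quartile scaling, 59.5% under library totals and 60.1% with limma on log2(FPKM + 1). With the library number as a replicate block, 7077 genes were higher and 7024 lower; since the libraries share only a number, this says nothing of pairing. With limma on log2(FPKM + 1), lower genes numbered 1389 at 2-fold or more, and 426, 372, 476 and 700 in abundance bins 5, 7, 8 and 9; with log2(FPKM + 0.1) these bins held 423, 371, 475 and 697. The cause was not tested. Leaving out 1 library, bin 1 held 206 to 296 higher genes (206 without the EV library numbered 2) and bin 2 held 224 to 280 lower genes (224 without the EV library numbered 3), against 323 and 359 with all. By EV abundance bin 1 held 955 higher and 63 lower genes and bin 2 172 lower; by ArPHR4 abundance bin 1 held 34 higher and 939 lower and bin 2 189 higher. These bins sort genes by one side of the contrast. The number of genes at 1 CPM or more, higher in ArPHR4 on counts, differed by -31.7 against EV when measured on FPKM. Genes seen in ArPHR4 and not in EV numbered 253 at 5 counts and 38 at 20, and the reverse set 208 and 8. Depth limits bins 1 to 4, where few genes without a call were bounded within 1.5-fold.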

Other observations

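The genes below the expression filter gave another view of the rare end. Of these genes, 19873, 19476 and 19791 had at least 1 count in the ArPHR4 libraries numbered 1 to 3, against 21102, 21138 and 22026 in the EV libraries. The groups did not overlap, although total counts were alike. The counts that fell on these genes ran the other way, at 77322, 75594 and 88438 in ArPHR4 and 69554, 70192 and 74853 in EV. Fewer rare genes were thus seen in ArPHR4 leaves than in EV leaves, with more unscaled counts in all. As shares of a library's counts the groups overlapped. Tested genes held 99.549% of the counts in the ArPHR4 library numbered 2 and 99.546% in the EV library numbered 3. The shares had a two-sided exact permutation p of 0.2. The ArPHR2 libraries were above EV in genes below the filter and in their unscaled counts, with 24017, 23138 and 23076 genes and 97102, 88939 and 81429 counts. Over the whole table, 46343 to 46756 genes had a count in an ArPHR4 library and 48035 to 48996 in an EV library.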
